A study of Mus musculus with 12 samples.

Results

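Oxidative phosphorylation runs on protein complexes of the inner mitochondrial membrane whose subunits come from 2 genomes. Its genes were described here in RNA pulled down with tagged astrocyte ribosomes from the cortex of Fmr1 knockout (KO) and wild-type (WT) mice. Fmr1 encodes FMRP, an RNA-binding protein that is lost in fragile X syndrome. The members were chosen by gene symbol, with earlier results of these data known, and kept by a filter on level. The symbols of complexes I to V matched 88 of the 52550 features in the count table, 75 encoded in the nucleus and 13 in the mitochondrial genome. A level over 1 CPM (reads counted relative to the library's total) in at least 3 libraries was reached by all 75 nuclear genes and by 8 of the 13 mitochondrial genes, which gave 83 members among 14990 genes in the test. Symbols are those of the count table, and several ATP synthase genes have newer names elsewhere.

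Complexes I to IV form the respiratory chain: complexes I and II take electrons from NADH and succinate, complex III passes them to cytochrome c, and complex IV hands them to oxygen. The protons moved on the way drive complex V, the ATP synthase. Astrocytes carry all of these complexes and are also known for strong glycolysis. The mitochondrial genome supplies catalytic core subunits of complexes I, III and IV and membrane subunits of complex V, while all of complex II and the remaining subunits are nuclear and made on cytosolic ribosomes. Mitochondrial messages are translated by separate ribosomes inside the organelle.

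The KO mice were Fmr1−/y and the WT mice Fmr1+/y, and both carried Aldh1l1-TRAP, in which the astrocyte promoter Aldh1l1 drives an eGFP-tagged ribosomal protein. Strain FVB/C57 and an age of P40 (postnatal day 40) were shared by all. Ribosomes were pulled down with anti-eGFP beads from 1 mm sections of somatosensory cortex, and total RNA libraries were made after ribosomal RNA removal. The tag marks cytosolic ribosomes, so reads of mitochondrial messages cannot be taken as RNA bound to the tagged ribosomes. How those reads came into the pull-down was not tested. There were 3 KO libraries (numbered 14, 16 and 18 in the labels) and 3 WT libraries (13, 15 and 17), each deposited as 2 entries that were summed. Whether every library stems from its own animal is not in the labels, so a p-value measures only the spread between these libraries.

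Summed counts lay between 10953958 and 21696862 in the KO libraries and between 19787520 and 22397202 in the WT libraries. Fmr1, the targeted gene, was at 4.32, 4.22 and 1.32 CPM in the KO libraries and at 31.6, 38.4 and 37.0 CPM in the WT libraries. The astrocyte marker Aldh1l1 was present in every library, between 380 and 453 CPM in KO and between 415 and 439 CPM in WT. Features that collect reads of ribosomal RNA took 35.6%, 45.1% and 0.892% of KO counts in libraries 14, 16 and 18, against 0.939%, 7.45% and 1.75% of WT counts in libraries 13, 15 and 17. KO libraries 14 and 16 therefore stand apart in composition. WT library 13 stands apart in the members themselves, which is described gene by gene with the results, and had the lowest sum of 10 neuron markers, at 1392 CPM against 1854 to 2415 CPM in the other libraries. In pull-down samples of this kind, fewer cells of a type, less RNA per cell and less RNA carried along cannot be told apart. Levels are given as CPM scaled by TMM (trimmed mean of M values), and the test is the quasi-likelihood F test of edgeR with Benjamini-Hochberg adjustment over all 14990 genes and a threshold of 0.05. This test did not call Fmr1 itself, at 11.5-fold lower in KO (edgeR unadjusted p = 2e-05, adjusted p = 0.2998), whereas the authors' deposited table gives it an adjusted p of 4.05e-40. A count of 0 past the threshold here is therefore no sign that levels were equal. The authors' table holds 12 columns of scaled signal per entry. Whether its test took entries or libraries as samples is not known here, so its p-values may not be comparable.

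The nuclear members lay close to the same level in both genotypes. Their summed level was 28047, 28603 and 29708 CPM in KO libraries 14, 16 and 18 and 31737, 26455 and 27269 CPM in WT libraries 13, 15 and 17. The means were 28786 ± 846 CPM in KO and 28487 ± 2844 CPM in WT (SD, n = 3 each). The KO sums fell inside the range of the WT sums, whose ends were set by libraries 13 and 15.

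Of the 75 nuclear genes, edgeR's quasi-likelihood test put 0 past the threshold, against a background of 0% of the 14990 genes. None had an unadjusted p under 0.05 either, where the background was 1.77%, made up of 0.734% higher and 1.03% lower in KO. DESeq2, limma voom and edgeR's exact test also called 0 of the 75, and each gave 0 an unadjusted p under 0.05. In the authors' deposited table, 0 of the 75 had an adjusted p under 0.05 (0.573% of its 14843 features did) and 0 an unadjusted p under 0.05 (6.92% did). For no nuclear gene did all KO libraries lie above or below all WT libraries, an arrangement seen in 2.95% (above) and 3.25% (below) of all genes.

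By the sign of the estimate 44 nuclear genes were higher and 31 lower in KO, while 49.6% of all genes were higher. Their median log2 fold change, KO over WT, was 0.0095, beside -0.0019 for all genes tested. The medians of complexes I to V, taken in that order, were 0.0021, 0.023, 0.015, 0.015 and 0.020. Estimates ran from -0.15 for Ndufv3 to 0.20 for Ndufa11. Standard errors were small, between 0.12 and 0.21 with a median of 0.14, so that 74 of the 75 intervals at 95% lay inside 1.5-fold in either direction. The lowest bound of any interval was a fold of 0.692 (Atp5s) and the highest 1.54 (Ndufa11).

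**Figure D1:**
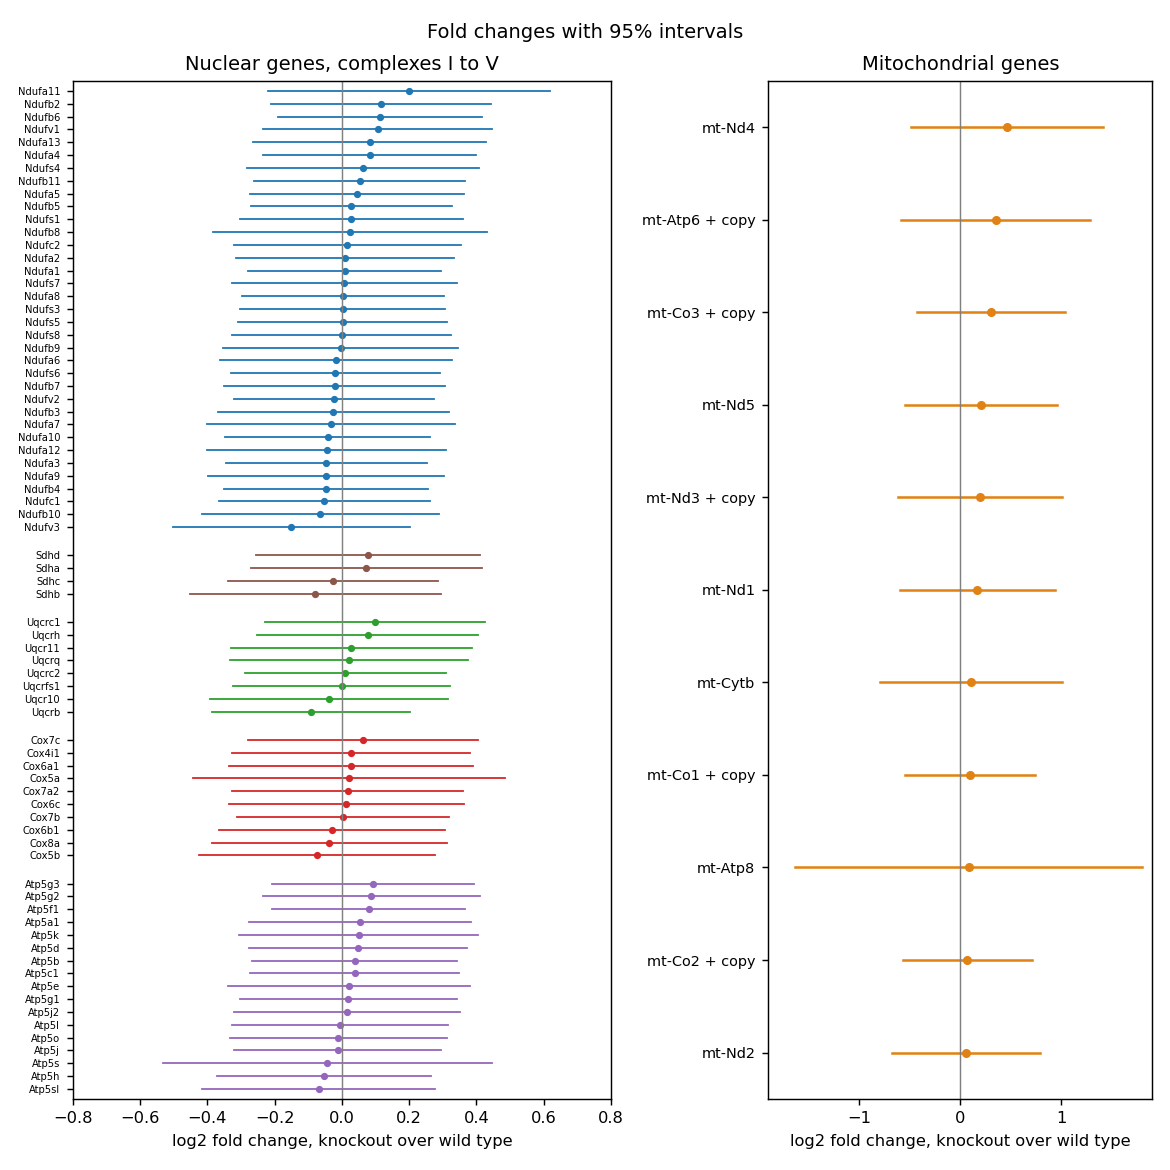
Log2 fold change, KO over WT, of 74 nuclear genes by complex (left; blue I, brown II, green III, red IV, purple V) and of 11 mitochondrial genes (right; horizontal axes differ), each with its 95% interval from edgeR's quasi-likelihood fit. "+ copy" marks a mitochondrial gene whose counts were summed with those of another feature that shares its reads. All intervals cross 0, and those of the mitochondrial genes are wider, with standard errors of 0.28 to 0.75 on the log2 scale.

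Complex I had 36 nuclear genes under the symbol rule, 19 higher and 17 lower by sign, none past the threshold. Ndufa11, an accessory subunit of the membrane arm, was at 213, 233 and 226 CPM in KO and at 219, 221 and 146 CPM in WT. Library WT 17 alone was low, and the KO values overlapped the other WT values. Its log2 fold change was 0.20 (SE 0.18, edgeR unadjusted p = 0.307, adjusted p = 1.00), the smallest unadjusted p among the nuclear members. The accessory subunits Ndufb6 and Ndufb2 followed at 0.11 (SE 0.13) and 0.12 (SE 0.14).

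Core subunits of the NADH-oxidising arm differed by less than the spread between KO libraries. Ndufv1, which binds NADH and the flavin, was at 266, 226 and 301 CPM in KO and at 234, 252 and 252 CPM in WT (log2 fold change 0.11, SE 0.15). Ndufs1, the largest iron-sulfur subunit, was at 179, 150 and 190 CPM in KO and at 164, 163 and 182 CPM in WT (0.028, SE 0.14). KO library 18 was the highest and KO library 16 the lowest of all for both genes, so the KO values enclosed the WT values.

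Ndufv3, an accessory subunit of the same arm as Ndufv1, had the lowest estimate of the nuclear members, with 153, 135 and 175 CPM in KO and 187, 153 and 175 CPM in WT (-0.15, SE 0.15, unadjusted p = 0.354 in edgeR's test). Without KO libraries 14 and 16 the estimate of Ndufv3 changed sign, to 0.055. Ndufa4 is counted under complex I by its name, although the protein is known as a component of complex IV; it was at 537, 587 and 571 CPM in KO and at 602, 505 and 495 CPM in WT.

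Complex II, succinate dehydrogenase, belongs to both the respiratory chain and the TCA cycle and has no mitochondrially encoded subunit. Sdha, the flavoprotein that oxidises succinate, was at 496, 403 and 534 CPM in KO and at 446, 435 and 483 CPM in WT (log2 fold change 0.073, SE 0.15). Sdhb, the iron-sulfur subunit, was at 360, 345 and 416 CPM in KO and at 469, 347 and 369 CPM in WT (-0.079, SE 0.16). The groups overlapped for both genes, and Sdhb was highest in WT 13 while Sdha was highest in KO 18. The membrane anchors Sdhc and Sdhd had log2 fold changes of -0.027 (SE 0.14) and 0.078 (SE 0.15).

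Complex III had 8 nuclear genes under the symbol rule, 5 higher and 3 lower by sign. Uqcrb, a small subunit beside a quinone site, was at 254, 255 and 241 CPM in KO and at 288, 256 and 255 CPM in WT (log2 fold change -0.091, SE 0.13). The KO values and the lower WT values met at 255 CPM, and WT 13 stood above the rest. Uqcrfs1, the Rieske iron-sulfur protein, was at 292, 286 and 287 CPM in KO and at 331, 267 and 267 CPM in WT (-0.00049, SE 0.14), so that its KO libraries all lay between WT 13 and the other WT libraries. Uqcrc1, one of the large core proteins, had the highest estimate of the complex, 0.099 (SE 0.14).

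Complex IV, cytochrome c oxidase, had 10 nuclear genes under the symbol rule. Cox4i1, the common form of the largest nuclear subunit, was at 1075, 1168 and 1213 CPM in KO and at 1337, 1015 and 1039.7 CPM in WT (log2 fold change 0.027, SE 0.15). Cox5b, a subunit on the matrix side, was at 535, 541 and 499 CPM in KO and at 640, 467 and 550 CPM in WT (-0.074, SE 0.15). For all 10 genes the highest of the 6 libraries was WT 13, which held for no other complex. Cox5a had the widest ratio of highest to lowest library among the nuclear members, 1.68, with 478, 406 and 387 CPM in KO and 520, 422 and 311 CPM in WT.

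Complex V had 17 nuclear genes by symbol, 11 higher and 6 lower by sign. Atp5b, the catalytic beta subunit, was at 1667, 1481 and 1740.5 CPM in KO and at 1633, 1548 and 1579 CPM in WT (log2 fold change 0.038, SE 0.13), and the KO values enclosed the WT values. Atp5a1, the alpha subunit that pairs with it, gave 0.053 (SE 0.14). Atp5s and Atp5sl fit the symbol rule but have the RefSeq symbols Dmac2l and Dmac2, and their levels were at most 18.4 and 43.3 CPM in any library. Both stay in the 17 by symbol, although those RefSeq symbols are not symbols of ATP synthase genes.

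The c ring of complex V is made of one mature peptide that is encoded by 3 genes, Atp5g1, Atp5g2 and Atp5g3, which differ in their import sequences. Together they reached 1061, 1101 and 1057 CPM in KO and 1122, 983 and 957 CPM in WT. Their shares of that sum differed between genotypes by less than the larger SD. Atp5g3 gave 54.2 ± 1.70% in KO and 53.5 ± 0.312% in WT (SD, n = 3 each). Atp5g1 gave 24.9 ± 0.451% in KO and 25.8 ± 1.32% in WT, and Atp5g2 gave 20.9 ± 2.01% in KO and 20.7 ± 1.14% in WT. These shares are of reads and are not scaled to transcript length. The log2 fold changes were 0.091 (SE 0.13) for Atp5g3, 0.088 (SE 0.14) for Atp5g2 and 0.019 (SE 0.14) for Atp5g1.

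The nuclear genes shared differences between single libraries. Of the 75 genes, 54 had their highest level in WT 13, 14 in KO 18, 5 in KO 16, 2 in KO 14 and 0 in WT 15 or WT 17. The lowest level fell in WT 15 for 28 genes, in WT 17 for 23 and in KO 16 for 12. The median deviation from the mean WT log2 level was -0.035, 0.023 and 0.064 in KO libraries 14, 16 and 18 and 0.17, -0.10 and -0.058 in WT libraries 13, 15 and 17. The ratio of highest to lowest library had a median of 1.28 over the 75 genes and passed 1.5 only for Ndufa11 and Cox5a.

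The 14 genes that peaked in KO 18 came from complex I (6 of its 36), complex II (2 of 4), complex III (2 of 8) and complex V (4 of 17), and 0 from complex IV. They held core subunits such as Ndufv1, Sdha and Atp5b and accessory or anchor subunits such as Ndufb2, Sdhc and Atp5k, while other core subunits, Ndufs3, Sdhb and Uqcrfs1 among them, peaked in WT 13. Because WT 13 was high in most genes, the split by sign depended on it: without that library 67 nuclear genes were higher and 8 lower in KO, with a median of 0.097. Without WT 15 the median was -0.030 with 23 higher, and without WT 17 it was -0.030 with 26 higher. In each of these fits 0 nuclear genes passed the threshold or had an unadjusted p under 0.05.

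**Figure D2:**
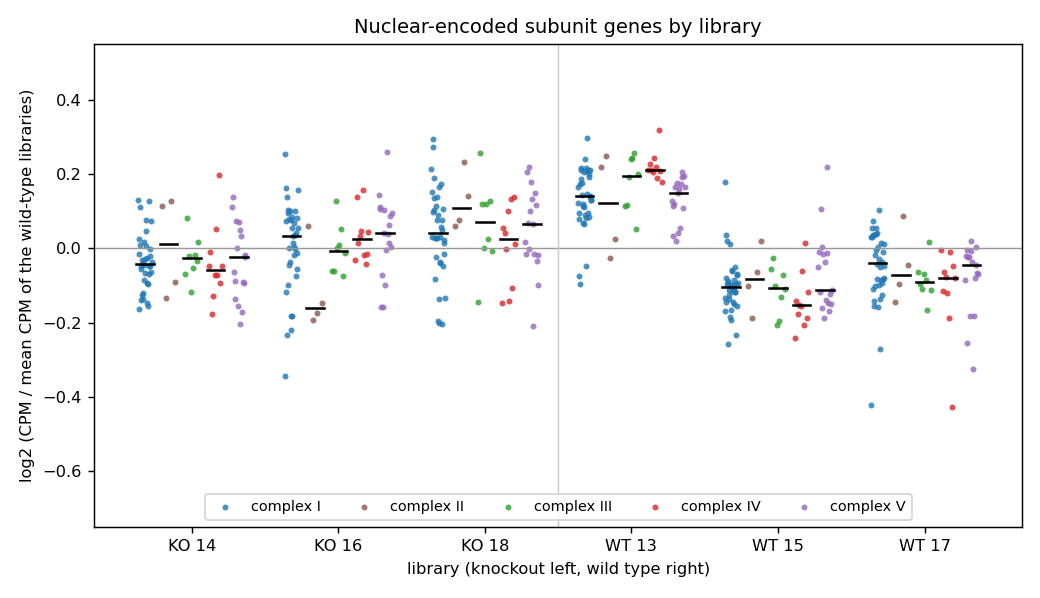
Level of each of the 75 nuclear genes in each library as log2 of its TMM-scaled CPM over the mean of the WT libraries; points are genes, colours are complexes and black bars are medians of a complex. KO libraries are left and WT libraries right. WT 13 lies above 0 for nearly all genes, with the highest median for complex IV, while WT 15 and WT 17 lie mostly below 0 and the KO libraries between them.

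The promoters of the nuclear genes were read for the motifs of known regulators of this gene set. Nuclear respiratory factor 1 (NRF1) and the ETS factor GABP (nuclear respiratory factor 2) are known to bind promoters of respiratory genes. The motifs searched, on both strands, were GCGCA, any base and then GCGC for NRF1, and CCGGAAG for the ETS core. In the 250 bases before the start of each gene (RefSeq, GRCm38.p6), 64 of the 75 members had a promoter entry. The NRF1 letters stood in 13 of the 64 (20.3%), against 4.23% of 27025 genes with a promoter entry, and the ETS letters in 12 (18.8%), against 7.83%. These 27025 genes were not limited to those expressed here, whereas all members passed a filter on level. A gene with several promoter entries counted if any of them matched. At least one of the motifs was found in 22 members, and both in Sdhd, Cox6a1 and Atp5h.

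The promoters of 3 members follow, with the motif letters of either strand in capitals, to show what a match looks like in the member with the highest estimate and in 2 subunits of complex II. That of Ndufa11 lies at chr17:56717512-56717761 on the plus strand and holds 1 NRF1 match. That of Sdha lies at chr13:74350241-74350490 on the minus strand and holds 3 NRF1 matches, one of them directly before the start. That of Sdhd lies at chr9:50603850-50604099 on the minus strand and holds 1 NRF1 match and, nearer to the start, 1 ETS match. The matches do not overlap.
Ndufa11: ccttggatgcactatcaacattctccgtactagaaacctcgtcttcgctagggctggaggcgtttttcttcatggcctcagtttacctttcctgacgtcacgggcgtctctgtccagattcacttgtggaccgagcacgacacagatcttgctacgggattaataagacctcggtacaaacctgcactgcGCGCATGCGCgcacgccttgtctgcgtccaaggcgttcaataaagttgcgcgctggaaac
Sdha: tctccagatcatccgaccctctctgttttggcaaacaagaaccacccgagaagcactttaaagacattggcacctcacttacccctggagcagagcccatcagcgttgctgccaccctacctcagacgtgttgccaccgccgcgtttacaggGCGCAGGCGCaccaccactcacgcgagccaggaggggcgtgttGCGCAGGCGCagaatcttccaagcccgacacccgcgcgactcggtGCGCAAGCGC
Sdhd: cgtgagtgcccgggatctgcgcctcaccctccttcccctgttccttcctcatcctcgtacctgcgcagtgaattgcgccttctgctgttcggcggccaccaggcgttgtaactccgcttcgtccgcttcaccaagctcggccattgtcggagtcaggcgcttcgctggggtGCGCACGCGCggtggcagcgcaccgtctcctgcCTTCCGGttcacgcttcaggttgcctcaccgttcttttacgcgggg

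A match is a description of the letters and not a bound site or a cause. The 13 members with the NRF1 letters had a median log2 fold change of 0.037 and the 51 without them 0.0029. The 12 members with the ETS letters had a median of 0.011 and the 52 without them 0.0073. The genes of the factors themselves were Nrf1, at 24.4 ± 0.379 CPM in KO and 25.0 ± 2.44 CPM in WT, and Gabpa, at 33.8 ± 6.64 CPM in KO and 30.2 ± 1.27 CPM in WT (SD, n = 3 each).

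The mitochondrially encoded genes gave few reads. Their sum was 196, 253 and 198 CPM in KO libraries 14, 16 and 18 and 94.3, 182 and 248 CPM in WT libraries 13, 15 and 17, which is 0.699%, 0.885% and 0.667% of the nuclear sum in KO and 0.297%, 0.689% and 0.909% in WT. Counted with the features that share their reads, these shares were 1.34%, 1.21% and 1.33% in KO and 0.575%, 1.34% and 1.67% in WT, so that KO 16 turned from the highest to the lowest KO library. All 8 genes over the level filter were higher in KO by sign, with a median log2 fold change of 0.19, and edgeR's quasi-likelihood test put 0 of 8 past the threshold and 0 at an unadjusted p under 0.05. DESeq2, limma voom and edgeR's exact test called 0 of the 8 as well, and the authors' deposited table holds 0 of these 8 at an adjusted or unadjusted p under 0.05. A mitochondrial gene outside the 8, mt-Atp6, is called in the authors' deposited table, with a log2 fold change of -7.62 and an adjusted p of 0.0138. Its reads sat almost wholly in WT 17 and were shared with another feature. Without WT 13, the library with the lowest sum, 3 were higher and 5 lower, with a median of -0.071.

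The remaining 5 symbols were mt-Nd4l, listed at 0 in every library, mt-Nd6 and mt-Atp8, which stayed under the filter (applied before TMM scaling), and mt-Co2 and mt-Atp6, which were at or near 0 in all libraries but 1. Reads of 4 mitochondrial genes, mt-Co2 and mt-Atp6 among them, were traded with other features between entries of a single library. In KO 18, mt-Co2 held 243 expected counts in the first entry and 0 in the second, while Gm28661 held 388 and 717. In WT 17, mt-Atp6 held 289 and 171 counts and Gm10925, which RefSeq lists as a pseudogene at chr1:24613971-24614651 with mt-Atp6 among its synonyms, held 0 and 140. The sum of each pair was a whole number, at the 2 decimals of the file, in all 12 entries.

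The same exchange was seen for mt-Co3 and Gm28437 and for mt-Nd3 and Gm28438. In KO 16, mt-Co3 held 285 and 293 counts while Gm28437 held 0 in both entries; in KO 14, mt-Co3 held 0 in both while Gm28437 held 473 and 481. The log2 fold change of mt-Co3 on its own was 3.15 (SE 1.99, unadjusted p = 0.150 in edgeR's test) and turned to -0.86 without KO 16. Between the 2 entries of a library, 6 of 47 mitochondrial gene comparisons with at least 20 counts differed after Bonferroni adjustment (exact binomial test), all in these 4 genes, against 0 of 450 for the nuclear members. The counts of each pair were therefore summed, and mt-Co1 was summed with Gm29216 in the same way. The entries of mt-Co1 did not differ in that test, and its sums with Gm29216 were whole in 11 of 12 entries. The merge moved the mean of mt-Co1 from 109 to 141 CPM in KO and from 102 to 132 CPM in WT. Only the partner of mt-Atp6 has an annotation for it; the other pairs were chosen after the values were seen.

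**Figure D3:**
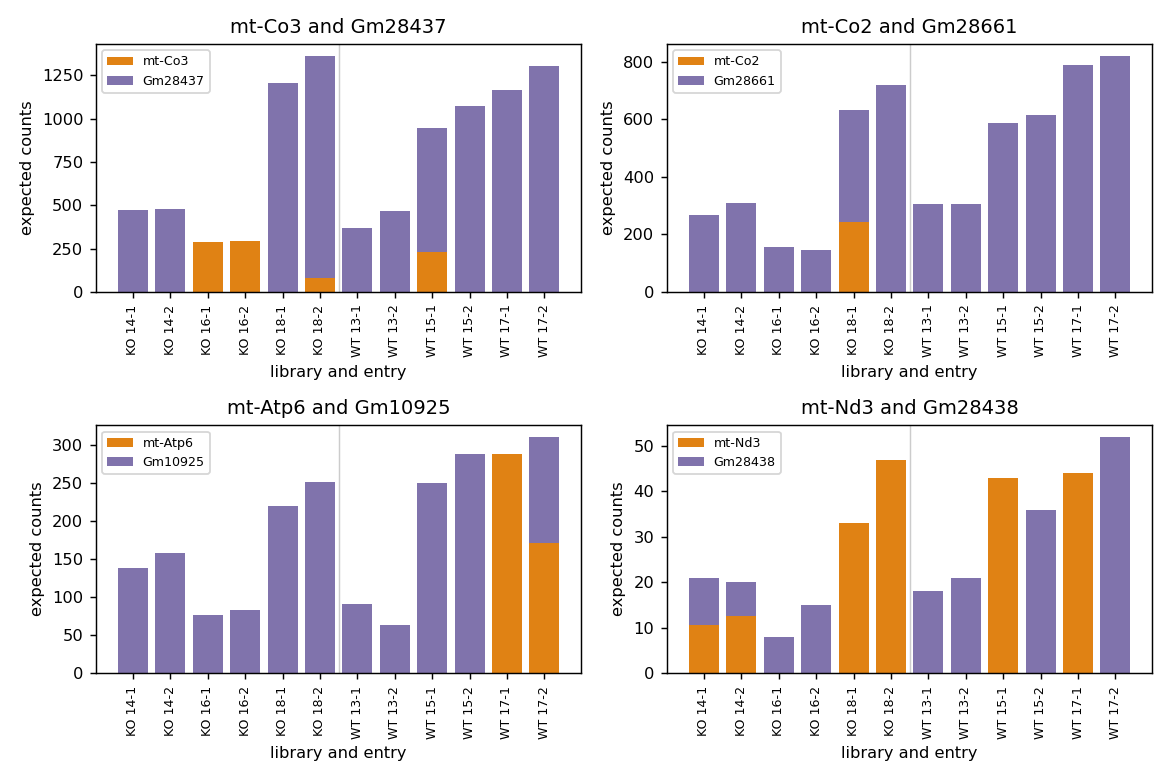
Expected counts of 4 mitochondrial genes (orange) stacked on those of the feature that shares their reads (purple), for each of the 2 entries of each library, KO left and WT right. The colours change between entries of 1 library, as in KO 18 for mt-Co2 and WT 15 for mt-Co3, while the height of the stack changes little.

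Summed with their partners, the 12 mitochondrial genes that had reads varied together by library. The sum of all was 375, 347 and 397 CPM in KO and 183, 354 and 454 CPM in WT, with means of 373 ± 24.8 CPM in KO and 330 ± 137 CPM in WT (SD, n = 3 each). WT 13 was the lowest library for 10 of the 12, the exceptions being mt-Nd2 and mt-Nd6, which were lowest in KO 18, and WT 17 was the highest for 5. The log2 fold changes of the 11 tested lay between 0.058 and 0.46, all positive, with standard errors from 0.28 to 0.75 and none with an adjusted or unadjusted p under 0.05 in edgeR's test. Differences of this size lay within the spread of the WT libraries.

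By assigned reads per length, with partner counts added, the genes of complex IV led. Partner counts entered for mt-Co3, mt-Co1, mt-Co2, mt-Atp6 and mt-Nd3 only. The genes mt-Atp8 and mt-Atp6 overlap in position (7766-7969 and 7927-8607), yet they averaged 4.24 and 28.3 CPM per kilobase over the 6 libraries. How the assignment of reads shaped the order was not tested. Per kilobase, mt-Co3 with its partner averaged 109.97 CPM in KO and 89.2 CPM in WT, mt-Co1 91.5 CPM in KO and 85.7 CPM in WT, and mt-Co2 69.0 CPM in KO and 65.8 CPM in WT. These are the catalytic core subunits of cytochrome c oxidase. Next came mt-Atp6, at 31.8 CPM per kilobase in KO and 24.8 in WT, then mt-Nd1 at 21.9 in KO and 19.4 in WT and mt-Cytb at 19.5 in KO and 18.1 in WT. The genes mt-Nd4, mt-Nd3, mt-Nd5, mt-Atp8 and mt-Nd2 lay below these, and mt-Nd6, the one gene of the set on the light strand, was at 0.748 in KO and 0.661 in WT. Neighbours in this order overlapped in their ranges over the 6 libraries, except mt-Co2 and mt-Atp6, where the lowest library of mt-Co2 (38.1 CPM per kilobase) lay above the highest of mt-Atp6 (35.5), and mt-Nd2 and mt-Nd6 (2.53 and 1.09), with mt-Nd4l at 0 below them all.

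For mt-Co3 with its partner the libraries read 77.8, 81.4 and 99.4 CPM in KO and 35.6, 79.7 and 94.5 CPM in WT (log2 fold change 0.30, SE 0.32). For mt-Co1 with its partner they read 149.5, 116 and 159 CPM in KO and 81.6, 130.3 and 185 CPM in WT (0.096, SE 0.28). In both genes WT 13 lay below all KO libraries and the other WT libraries lay within or above them. In complex I, mt-Nd4 had the highest estimate, with 14.7, 22.7 and 11.6 CPM in KO and 5.20, 13.7 and 16.2 CPM in WT (0.46, SE 0.42), and mt-Nd1 was at 22.8, 20.7 and 19.3 CPM in KO and at 9.07, 25.5 and 21.2 CPM in WT (0.17, SE 0.33). mt-Cytb, the complex III core, was at 20.6, 22.1 and 24.2 CPM in KO and at 8.98, 20.2 and 32.9 CPM in WT (0.11, SE 0.39).

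For some complex I genes the sign changed with the libraries left out, of either genotype, or with the ribosomal RNA share in the model. mt-Nd2 was at 4.57, 4.08 and 2.63 CPM in KO and at 2.81, 4.23 and 3.67 CPM in WT (0.058, SE 0.32), and mt-Nd5 was at 9.38, 10.3 and 6.62 CPM in KO and at 4.51, 7.62 and 10.4 CPM in WT (0.21, SE 0.33). Both were lowest among KO libraries in KO 18, and without KO libraries 14 and 16 their estimates were -0.42 and -0.16. With the share of ribosomal RNA reads as a term in the model they were -0.38 and -0.15, and mt-Nd4 turned to -0.039. Without KO libraries 14 and 16, mt-Nd4 was at 0.013.

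**Figure D4:**
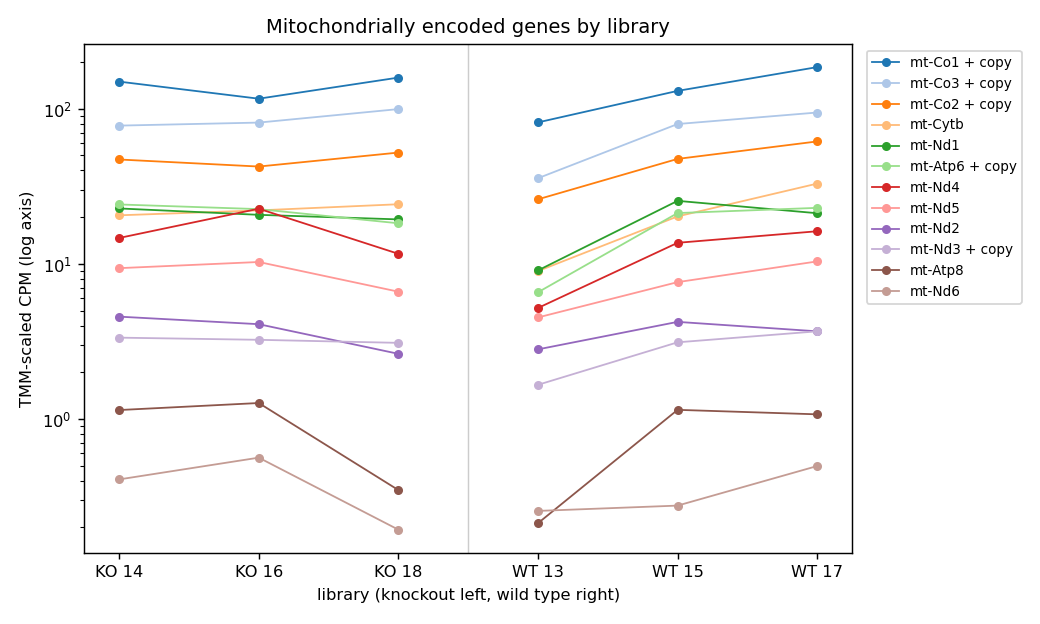
TMM-scaled CPM (log axis) of 12 mitochondrially encoded genes in each library, KO left and WT right; lines join the values of 1 gene, and "+ copy" marks counts summed with another feature that shares reads. Most lines dip in WT 13 and reach KO levels in WT 15 and WT 17. mt-Nd4l was listed at 0 in all libraries and is not drawn.

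The nuclear and mitochondrial genes thus ordered the libraries differently: WT 13 was the highest library for the nuclear sum and the lowest for the mitochondrial sum. The mitochondrial ribosomal RNAs mt-Rnr1 and mt-Rnr2, whose sum was 369, 361 and 349 CPM in KO and 134, 375 and 317 CPM in WT, also had their lowest value in WT 13. The neuron markers were at 2140, 1854 and 2415 CPM in KO and at 1392, 2210 and 2348 CPM in WT, lowest in the same library. By sign 8 of 10 neuron, 2 of 10 astrocyte, 5 of 7 oligodendrocyte and 1 of 6 microglia markers were higher in KO, against 49.6% of all genes. Also higher by sign were 5 of 5 blood cell genes, 5 of 9 endothelial and mural markers and 1 of 2 oligodendrocyte precursor markers. The 10 astrocyte markers summed to 19196, 20100 and 15290 CPM in KO and to 20642, 18407 and 15802 CPM in WT, highest in WT 13. The 7 oligodendrocyte markers summed to 881, 600.3 and 1351 CPM in KO and to 651, 838 and 1127 CPM in WT. The part of other cell types in these library differences was not tested. Nor was the part of ribosomal RNA removal in the levels of mt-Rnr1 and mt-Rnr2.

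**Figure D5:**
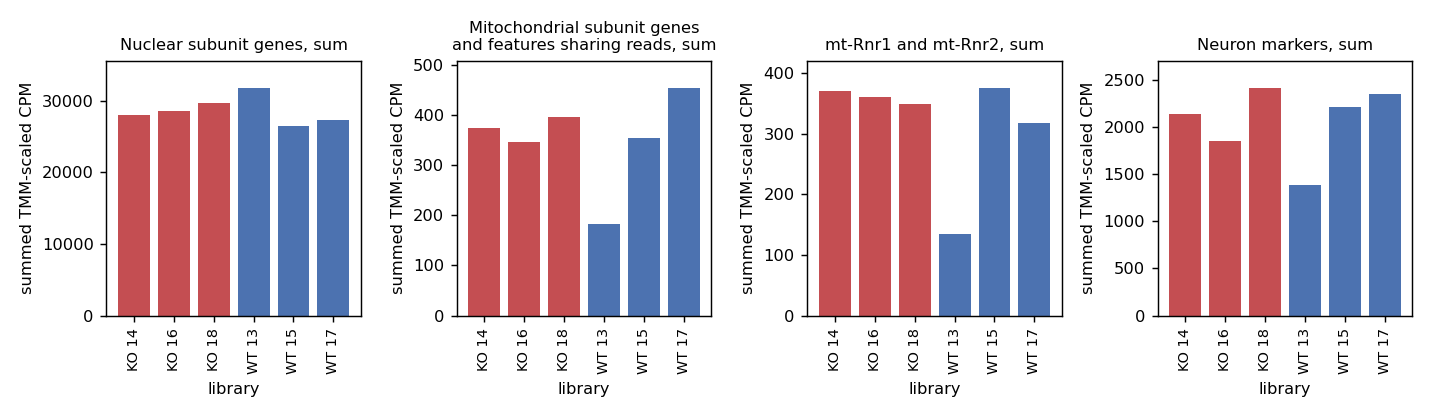
Summed TMM-scaled CPM by library for the 75 nuclear genes, the mitochondrially encoded genes with the other features that share their reads, the mitochondrial ribosomal RNAs and 10 neuron markers; red bars are KO and blue bars WT, and each axis starts at 0. WT 13 is the highest bar in the first panel, at 31737 CPM, and the lowest in the other panels.

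Titles also carry a date-like code whose first number is 5 for KO 14, KO 16 and WT 13 and 6 for KO 18, WT 15 and WT 17. Each number holds a single library of one genotype, so no spread within it can be had for both genotypes. With that number as a term in the edgeR model, the nuclear genes had a median log2 fold change of -0.025 and the 8 mitochondrial genes one of 0.50, and 0 of either set passed the threshold.

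Of 50 assembly factors tested, 26 were higher and 24 lower by sign, with a median log2 fold change of 0.0091, and 0 passed the threshold or had an unadjusted p under 0.05 in edgeR's test. The smallest unadjusted p among them belonged to Coa7, an assembly factor of complex IV, with 23.0, 19.6 and 21.8 CPM in KO and 20.1, 16.2 and 14.7 CPM in WT (0.34, SE 0.17, unadjusted p = 0.0820 in edgeR's test). Tmem70, which helps to assemble ATP synthase, was at 60.2, 60.7 and 53.4 CPM in KO and at 69.9, 62.4 and 67.7 CPM in WT (-0.20, SE 0.13). Its KO libraries all lay below the WT libraries, as in 3.25% of all genes.

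Among 12 tested subunits and isoforms outside the symbol rule, 4 were higher and 8 lower by sign. Cox8b, a muscle isoform of a complex IV subunit, was at 1.96, 2.39 and 1.66 CPM in KO and at 2.43, 3.83 and 3.18 CPM in WT (-0.67, SE 0.33, unadjusted p = 0.0752 in edgeR's test). Its KO libraries all lay below the WT libraries, as in 3.25% of all genes, although KO 16 at 2.39 CPM and WT 13 at 2.43 CPM nearly met. Cox7b2, a testis isoform, was at 3.34, 1.83 and 2.17 CPM in KO and at 2.85, 2.73 and 4.63 CPM in WT (-0.47, SE 0.36). The groups of Cox7b2 overlapped.

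Regulators of mitochondrial gene expression and biogenesis showed no shared direction, with 11 of 20 higher and a median of 0.0047. Twnk, the mitochondrial DNA helicase, was at 13.9, 12.0 and 15.4 CPM in KO and at 11.5, 11.3 and 10.7 CPM in WT (0.31, SE 0.17), with all KO libraries above all WT libraries. Tfb2m, a mitochondrial transcription factor, was at 23.7, 24.1 and 19.6 CPM in KO and at 26.0, 28.4 and 25.3 CPM in WT (-0.25, SE 0.15), with all KO libraries below. Neither had an unadjusted p under 0.05 in edgeR's test. All KO libraries lay above all WT libraries for 1 of the 20 genes (5%) and below for 2 (10%), against 2.95% and 3.25% of all genes. Ppargc1a, the coactivator PGC-1alpha, was at 47.4 ± 4.61 CPM in KO and 47.2 ± 2.65 CPM in WT (SD, n = 3 each).

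The 16 genes of pyruvate dehydrogenase and the TCA cycle had 7 higher and 9 lower by sign and a median of -0.010, with Sucla2, a succinyl-CoA ligase subunit, and Dlat, the acetyltransferase of pyruvate dehydrogenase, at -0.12 (SE 0.14) and -0.095 (SE 0.14). The 78 mitochondrial ribosomal protein genes had 44 higher and 34 lower and a median of 0.0095. Mrpl15 was at 92.7, 86.2 and 100.1 CPM in KO and at 83.5, 73.5 and 65.9 CPM in WT (0.32, SE 0.14, unadjusted p = 0.0521 in edgeR's test), all KO libraries above. Mrpl42 was at 80.8, 88.7 and 94.0 CPM in KO and at 111, 99.5 and 103 CPM in WT (-0.25, SE 0.13), all KO libraries below. Of these 78 genes, 1 had all KO libraries above (1.28%) and 2 had all below (2.56%), against 2.95% and 3.25% of all genes. In these lists too 0 genes passed the threshold, and the quasi-likelihood fit of edgeR gave 0 an unadjusted p under 0.05. For Mrpl15 the unadjusted p ranged from 0.0234 without WT 13 to 0.1795 without WT 17, with 0.0385 in DESeq2 and 0.0439 in limma voom, and its adjusted p was at least 0.860 in every alternative.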

How the data were processed

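RNA from the ribosome pull-down of 3 KO and 3 WT libraries was compared, with groups taken from the genotype labels. The deposited count table holds expected counts of 52550 features with no scaling, in an RSEM output folder per the file headers. The submitters' processing notes name STAR 2.5.3a, RSEM 1.3.0, edgeR and build mm10, without their settings. Strand setting and annotation release were not given in the sources used here, so overlapping antisense reads cannot be told apart, and RSEM divides reads among features that share sequence. The authors' deposited table gives log2 fold changes, p-values and adjusted p-values. It was read as KO over WT from the sign of Fmr1, and its 12 columns of scaled signal per entry were not used.

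The 2 entries of a library were summed, rounded and counted as 1 sample. Genes passing filterByExpr on genotype (14990) were scaled by TMM and tested with edgeR 4.0.16 (R 4.3.3; quasi-likelihood F test, Benjamini-Hochberg, threshold 0.05). The fit had 4 residual and 8.24 total degrees of freedom, and the SE and 95% intervals follow from the F statistic and cover the spread between libraries. The exact permutation test over 3 against 3 libraries cannot go below a two-sided p of 0.1 and was not used for calls. The script was tested on simulated data with known changes. Alternatives were DESeq2 1.42.0, limma 3.58.1 (voom), other scalings and filters, covariates, libraries left out, and merging of mitochondrial genes with the features that share their reads, the last chosen after seeing the data.

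The members and lists were chosen with earlier results of these data known. Genes named with a test were every mitochondrial gene over the filter, the 5 nuclear genes of smallest p in each direction, fixed subunits of each complex with the 3 genes of subunit c, and up to 2 genes of smallest p per other list. One gene that this rule names is not reported here by name. Other members are named for their level, library order or name, after their values were seen. Positions of the 75 nuclear genes and promoters come from RefSeq, matched by symbol or synonym.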

Additional observations from a re-analysis of the deposited data

How the results depend on the processing

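The count of members past the threshold was 0 in both sets under every alternative run. Over all genes the main count of 0 became 6 without a filter on low counts, 8 with DESeq2, 9 with edgeR's exact test and 1 after adjusting for the ribosomal RNA share, and lay between 0 and 2 with 1 library left out. The median log2 fold change ranged from -0.030 to 0.097 for the nuclear and from -0.071 to 0.56 for the mitochondrial genes; after that adjustment it was 0.044 and 0.016. Without KO libraries 14 and 16 it was 0.079 and 0.077, with 1 KO library assumed to vary like the WT libraries. Estimates near 0 changed sign, and so did larger ones, such as mt-Co3 (3.15 in the main fit), mt-Nd4 (0.46) and Ndufv3 (-0.15). The cause was not tested. With the number in the title as covariate, Atp5g1 was at -0.029 and Cox4i1 at -0.0071. Adjusted for the ribosomal RNA share, Atp5g1 was at -0.0072, mt-Nd2 at -0.38, mt-Nd4 at -0.039, mt-Nd5 at -0.15, Ndufv3 at 0.044, Sdhb at 0.086 and Uqcrfs1 at 0.015. Without KO libraries 14 and 16, mt-Nd2 was at -0.42, mt-Nd5 at -0.16, Ndufv3 at 0.055, Sdhb at 0.10 and Uqcrfs1 at 0.019. Limma voom put mt-Nd2 at -0.062 and Uqcrfs1 at 0.0073. DESeq2's size factors in edgeR put Uqcrfs1 at 0.0081, DESeq2 itself at 0.0082 and the CPM filter at 0.00046. With 1 library left out at a time the ranges were -0.012 to 0.10 for Atp5b, -0.065 to 0.11 for Atp5g1, -0.033 to 0.17 for Cox4i1, -0.17 to 0.046 for Cox5b, -0.047 to 0.12 for Ndufs1, -0.015 to 0.18 for Sdha, -0.16 to 0.063 for Sdhb and -0.054 to 0.11 for Uqcrfs1. For the mitochondrial genes they were -0.14 to 0.43 for mt-Co1, -0.86 to 10.01 for mt-Co3, -0.25 to 0.61 for mt-Cytb, -0.16 to 0.47 for mt-Nd1, -0.12 to 0.28 for mt-Nd2, -0.15 to 1.14 for mt-Nd3, -0.054 to 0.51 for mt-Nd5 and -0.012 to 0.48 for mt-Rnr1. An unadjusted p under 0.05 came up for 1 mitochondrial gene without a filter and for 1 without WT 15, and for 0 nuclear genes under any alternative. No paired analysis was possible because the genotypes share no library number. Levels of mt-Nd6 and mt-Atp8 lay near or under 1 CPM, and mt-Nd2 and mt-Nd5 had 29 to 107 and 73 to 271 counts a library. The most deeply counted mitochondrial gene, mt-Co1, at 640 to 3727 counts a library, had an SE of 0.28. Ndufa1, at 938 to 3433 counts, had an SE of 0.13. The part of depth in the width of the mitochondrial intervals was not tested.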
